A study of Mus musculus with 8 samples.

Results

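The genes described here encode glutamate receptors and the scaffold proteins that hold these receptors at the postsynaptic membrane. They were chosen by gene name and function, with earlier results of these data known, as 37 genes of 48709 listed in the count tables. The set comprised 4 AMPA receptor subunits, 7 NMDA receptor subunits, 5 kainate receptor subunits, 1 delta receptor subunit and 6 metabotropic glutamate receptors. It further comprised 4 membrane-associated guanylate kinases (MAGUKs), 3 Shank proteins, 3 Homer proteins, 2 SAPAP proteins and 2 subunits of the kinase CaMKII. In the comparison of mutant and control cortex, 36 of the 37 were tested. None of them passed the adjusted threshold of 0.05 in the fit of all 8 libraries without a covariate. With 1 surrogate variable added, a fitted term for unlabelled variation between libraries, 2 passed (Grm5 and Grm7), beside 4.11% of all genes.

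Glutamate is the main excitatory transmitter of the cerebral cortex. It opens ionotropic receptors, of which the AMPA type carries most of the fast current and the NMDA type admits calcium when the neuron is already depolarised, and it activates metabotropic receptors that signal through G proteins. Behind the membrane, MAGUK, SAPAP, Shank and Homer proteins bind one another in layers and couple the receptors to actin, to internal calcium stores and to CaMKII. In newborn rodent cortex synapses are sparse, the NMDA receptor subunit GluN2B predominates over GluN2A, and the balance shifts toward GluN2A over the following weeks.

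Expression was measured by RNA sequencing of whole cortical tissue from mice at postnatal day 1 (P1), with 4 control and 4 dcKO libraries. In the dcKO, Smarcc1 and Smarcc2, which encode the chromatin remodelling subunits BAF155 and BAF170, carry loxP-flanked alleles on both chromosomes and are deleted by Cre recombinase. The study's methods give the Cre line at this age as Nex-Cre, which acts in postmitotic excitatory neurons of the cortex, so that glia, interneurons and blood vessels in the same tissue keep intact genes. The controls were heterozygous floxed animals without Cre (BAF155fl/+, BAF170fl/+), both groups were on a C57BL6/J background, and the Cre allele was therefore present in the dcKO only. No label says that each library came from a separate animal, so the p-values measure the spread between these libraries, which may be partly technical. In bulk tissue, fewer cells of a type and less RNA per cell cannot be told apart.

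The libraries held 17958641 to 35191912 counts, of which the 37 genes took 72638 to 165389, or 0.4045% to 0.47%. Smarcc2 was at 462 ± 25.8 CPM (counts scaled to a common library size) in the controls and 263 ± 26.0 CPM in the dcKO (SD, n = 4), and it fell by 0.81 on the log2 scale (edgeR, adjusted p = 0.00267). Smarcc1 was at 148 ± 11.6 CPM against 102 ± 13.7 CPM and fell by 0.53 (edgeR, adjusted p = 0.0348), and both targeted genes were lower in every dcKO library than in any control. The Smarcc2 call held in all 8 comparisons that left out 1 library, whereas that of Smarcc1 was lost in 6 of the 8, under the replicate block and within 1 lane tag, with its log2 fold change between -0.63 and -0.46. The mitochondrial share of counts was 6.87% in control replicate 2 and 6.148% in dcKO replicate 4, against 2.328% to 4.244% in the other 6 libraries. All controls and dcKO replicates 1 and 2 carried one sequencing lane tag, and dcKO replicates 3 and 4 carried another with no control in it. Summed markers of cortical projection neurons spanned 1871 to 2244 CPM in the controls and 1685 to 1923 CPM in the dcKO. Of these 10 markers only Neurod6 passed the adjusted threshold, falling by 0.74 (edgeR, adjusted p = 0.0192), and Neurod6 is the gene also called Nex, whose locus carries Cre in the Nex-Cre line, so that for this gene the Cre allele and a change in the cells cannot be told apart. The other 9 summed to 1287 to 1494 CPM in the controls and 1286 to 1512 CPM in the dcKO, so that the sums overlapped. Singly, Fezf2 (-0.55, edgeR adjusted p = 0.149) and Nrn1 (-0.25, adjusted p = 0.307) were below every control in all 4 dcKO libraries. Cux1 (0.16, adjusted p = 0.377) was above every control in all 4. Of all genes tested, 4.01% lay wholly below and 3.99% wholly above. Summed interneuron markers spanned 829 to 978 CPM against 732 to 877 CPM, and oligodendrocyte markers 220 to 306 CPM against 297 to 372 CPM. Among the lists of other cells 1 gene each of oligodendrocytes (Cspg4), microglia (C1qb) and striatal neurons (Ppp1r1b) rose (edgeR, adjusted p = 0.0355, 0.0422 and 0.04), 0 genes passed in the interneuron, radial glia and astrocyte, vascular, thalamic, blood and choroid plexus lists, and the choroid plexus sum spanned 21.7 to 1323 CPM in the controls and 4.27 to 552 CPM in the dcKO. The part of these cell types in the results was not tested.

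Across cortical RNA of the controls, levels of the set spread over more than 2 orders of magnitude on a per-length scale (CPM per kilobase of exon). The length was that of the merged exons of all annotated transcripts, 15548 bases for Gria2 and 6043 for Gria1. It can exceed the length of the transcripts expressed, so comparisons between genes on this scale are approximate. The CaMKII beta subunit Camk2b stood first at 52.5 ± 1.63 CPM per kb (SD, n = 4). The AMPA receptor subunits Gria2 at 43.4 ± 6.93 and Gria1 at 42.9 ± 1.85 followed, and with these lengths did not differ beyond their spread. The auxiliary kainate receptor subunit Grik5 came next at 30.6 ± 2.17 CPM per kb, then the scaffold Dlg4, which encodes PSD-95, at 27.8 ± 0.424 and Camk2a at 21.4 ± 1.26. At the other end were the NMDA receptor subunits Grin2a at 0.393 ± 0.0554, Grin2c at 0.313 ± 0.0876 and Grin3b at 0.121 ± 0.0347 CPM per kb. Grin3b had a mean of 7.75 counts per library and was the member left out by the filter on low counts. It shares 32.1% of its exon bases with Tmem259 on the opposite strand, a gene with a mean of 1879 counts, and as the library kit does not mark strand, reads in the shared bases cannot be told apart.

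**Figure D1:**
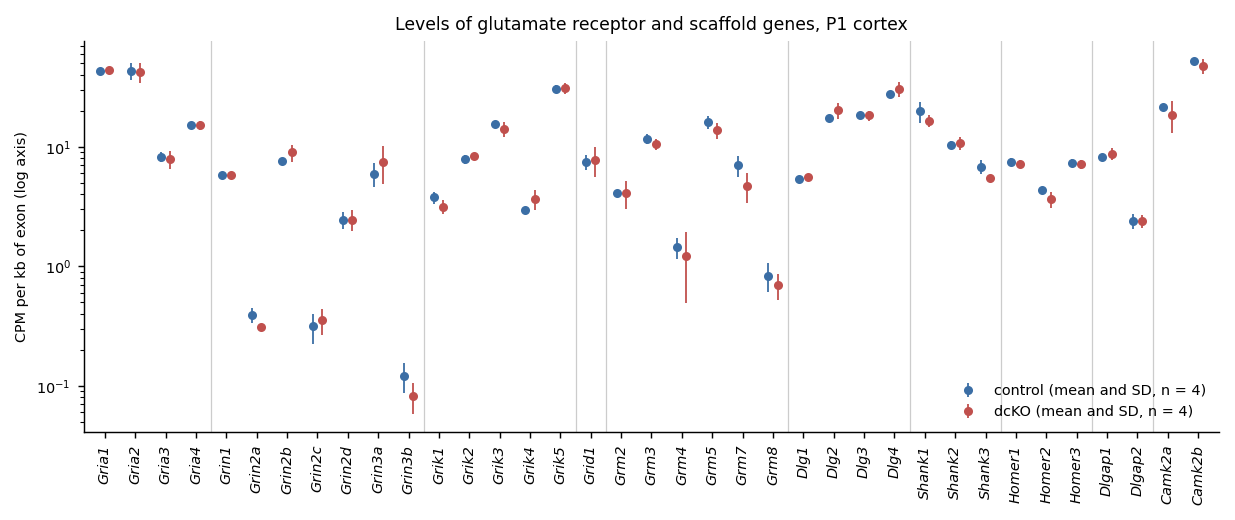
Level of each of the 37 genes in CPM per kilobase of exon on a log axis, with the mean and SD of 4 control libraries in blue and 4 dcKO libraries in red, and grey lines between families. The control and dcKO means of each gene lie close together against a range from 0.121 (Grin3b) to 52.5 (Camk2b) CPM per kb in the controls.

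The comparison of dcKO with control asked whether loss of the BAF complex from cortical neurons shifted this set of transcripts by P1. Of the 16287 genes tested in all, 144 passed an adjusted p of 0.05 by edgeR's quasi-likelihood test, which is 0.884%, and 0 of the 36 tested members were among them. The smallest adjusted p of a member was 0.188, for Shank3. At an unadjusted p under 0.05, 4 of the 36 members were lower in the dcKO (Grm7, Homer2, Shank3 and Grin2a), against 7.05% of all genes. Another 2 of the 36 were higher (Grin2b and Grik4), against 6.59% of all genes. Both directions together made 16.7% of the tested members, beside 13.6% of all genes. DESeq2's Wald test and limma-voom also called 0 members at an adjusted p of 0.05, with 7 and 5 members at an unadjusted p under 0.05. The share of all genes at that unadjusted threshold is not given for these other tests.

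Differences of members between the groups were small and went both ways. Of the 36, 17 had a log2 fold change above 0 and 19 below, with a median of -0.021 against 0.004 over all genes tested, and a median absolute value of 0.135 against 0.134. The values ranged from -0.57 (Grm7) to 0.33 (Grin3a), and 17 members lay within 0.1 of 0. The 95% interval of 24 members lay within 0.5 of 0 on the log2 scale in both directions, and that of the other 12 reached past 0.5, so that for these 12 a difference of 0.5 is not excluded. Shank3 was the only member whose 4 dcKO libraries all lay below all 4 controls, a separation seen in 4.01% of all genes, and 0 members lay wholly above, against 3.99% of all genes.

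**Figure D2:**
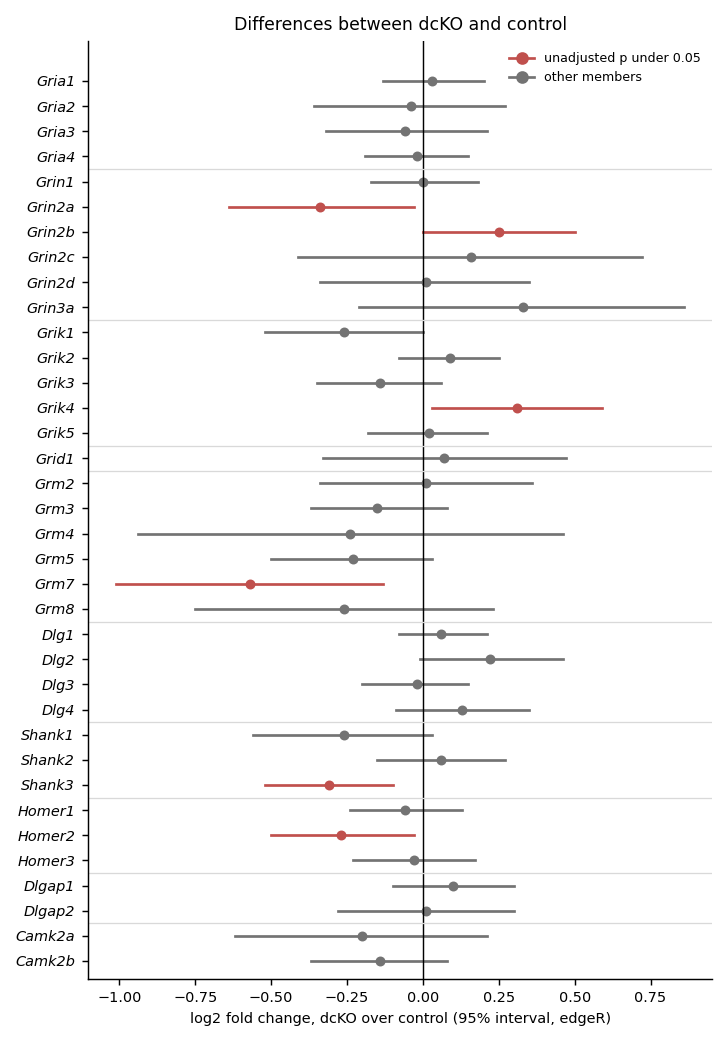
Log2 fold change of dcKO over control for the 36 tested genes with its 95% interval from edgeR, families separated by grey lines and the 6 genes with an unadjusted p under 0.05 in red. Points lie on both sides of 0, from -0.57 for Grm7 to 0.33 for Grin3a.

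These counts were higher without the library of highest mitochondrial share in each group, control replicate 2 and dcKO replicate 4. Both were the lowest library of their group in 12 of the 36 members, both were the highest in 4 (Gria2, Gria4, Homer2 and Dlgap2), and they were at opposite ends in 8. In a comparison of 3 against 3 libraries without them, chosen after seeing the data, 4 members passed the adjusted threshold. Homer2 (-0.34, edgeR adjusted p = 0.00835) and Grm7 (-0.54, adjusted p = 0.0132) fell, and Grik4 (0.43, adjusted p = 0.00761) and Grin2b (0.37, adjusted p = 0.0263) rose. These are 2 of 36 members, or 5.56%, in each direction, against 5.50% of all genes that fell and 5.49% that rose in the same comparison, so the share of members called was near the background. Leaving out dcKO replicate 4 alone gave 2 members, Grik4 and Homer2, against 7.73% of all genes. Within the lane tag shared by both groups (4 controls, dcKO replicates 1 and 2), 0 members passed and the median log2 fold change of the members was 0.032. The 6 members with an unadjusted p under 0.05 kept their direction there. Their values were -0.36 for Grm7, -0.40 for Homer2, -0.24 for Shank3, -0.28 for Grin2a, 0.33 for Grin2b and 0.44 for Grik4. These libraries are part of those that picked the 6, so the kept direction is not an independent result.

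**Figure D3:**
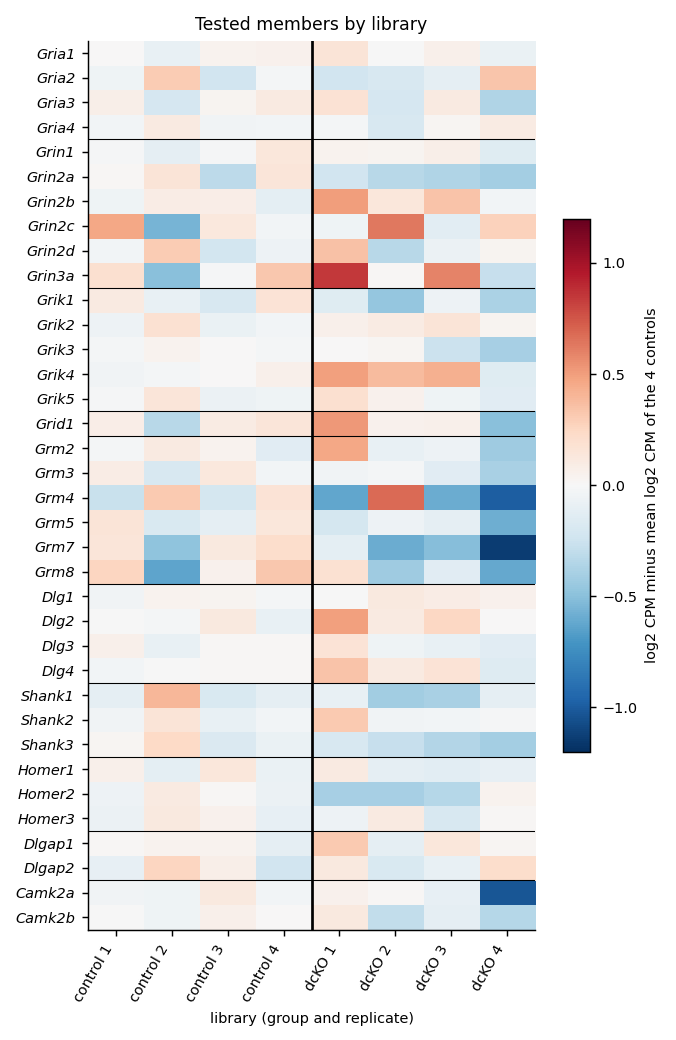
Each tested gene in each library as log2 CPM minus the mean log2 CPM of the 4 controls, with red above and blue below the control mean, controls left of the thick line and dcKO right of it. dcKO replicate 4 is the lowest dcKO library for 23 of the 36 genes, most deeply for Grm7, Camk2a and Grm4.

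AMPA receptor subunits were the family with the smallest differences. Gria1 was at 260, 243, 266 and 268 CPM in control replicates 1 to 4 and at 288, 259, 270 and 245 CPM in dcKO replicates 1 to 4. The groups overlapped, and the log2 fold change was 0.03 with a 95% interval of -0.13 to 0.20. Gria2, the subunit that keeps most AMPA receptors impermeable to calcium, was at 645, 826, 571 and 656 CPM in the controls and at 571, 584, 619 and 841 CPM in the dcKO. Its highest value in each group belonged to control replicate 2 and dcKO replicate 4, the libraries with the highest mitochondrial share. Gria3 (-0.06, 95% interval -0.32 to 0.21) and Gria4 (-0.02, -0.19 to 0.15) likewise showed small fold changes.

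The make-up of the AMPA receptor family was also close between groups. Of its summed per-length level, Gria1 took 39.2 ± 3.36% in the controls and 40.5 ± 4.10% in the dcKO, Gria2 took 39.4 ± 4.29% and 38.4 ± 5.32%, and Gria4 took 13.9 ± 0.326% and 13.8 ± 0.413% (SD, n = 4). The log2 ratio of Gria2 to Gria1 CPM within a library was 1.37 ± 0.28 in the controls and 1.28 ± 0.34 in the dcKO. That difference of -0.08 was within the spread between libraries (two-sided exact permutation test over 70 regroupings, p = 0.6, adjusted over 4 ratios 0.714).

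Among NMDA receptor subunits, the GluN2A and GluN2B genes differed in opposite directions without passing the adjusted threshold. Grin2a (chromosome 16, 9567898 to 9995560, minus strand, GRCm38) was at 7.05, 7.77, 5.63 and 7.71 CPM in the controls and at 5.97, 5.56, 5.45 and 5.28 CPM in the dcKO. Of the 4 dcKO libraries, 3 lay below the lowest control, which was replicate 3, and the log2 fold change was -0.34 (SE 0.14, 95% interval -0.64 to -0.03, edgeR adjusted p = 0.315). Grin2b (chromosome 6, 135713233 to 136173511, minus strand) was at 180, 199, 197 and 172 CPM in the controls and at 265, 205, 237 and 183 CPM in the dcKO. dcKO replicates 1, 2 and 3 lay above every control and replicate 4 within their range, for a log2 fold change of 0.25 (SE 0.11, edgeR adjusted p = 0.361). Without dcKO replicate 1 the value was 0.15 (edgeR adjusted p = 0.632).

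Taken within each library, the log2 ratio of Grin2b to Grin2a CPM was 4.68, 4.68, 5.13 and 4.48 in the controls and 5.47, 5.21, 5.44 and 5.12 in the dcKO. The ratio was above every control in 3 of 4 dcKO libraries, and the group means differed by 0.57 (4.74 ± 0.27 against 5.31 ± 0.17, n = 4, two-sided exact permutation test p = 0.0571, adjusted over 4 ratios 0.228). The smallest possible p of this test is 0.0286. Adjusted over 4 ratios, even that p could not pass the adjusted threshold for a single ratio on its own. The adjusted test therefore cannot decide whether this ratio differed between the groups. Leaving out 1 library at a time, the difference ranged from 0.48 to 0.70.

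The obligatory subunit Grin1 was among the members nearest to 0. It was at 56.1 ± 4.02 CPM in the controls and 56.2 ± 3.79 CPM in the dcKO, with a 95% interval of -0.17 to 0.18 for its log2 fold change. Grin3a, a subunit abundant in immature neurons, had the highest fold change of the set, with 81.8, 50.6, 71.0 and 89.6 CPM in the controls and 129, 72.2, 108 and 59.3 CPM in the dcKO. The groups overlapped widely, the lowest value in each belonged to control replicate 2 and dcKO replicate 4, and the 95% interval of -0.21 to 0.86 held 0. The value of 0.33 was 0.12 without dcKO replicate 1 and 0.10 with 1 surrogate variable. Grin2d differed by 0.01 (-0.34 to 0.35), and Grin2c, with a mean of 39.9 counts per library, by 0.16 (-0.41 to 0.72).

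Of the 5 kainate receptor subunits, 3 lay above 0 and 2 below, and none passed the adjusted threshold. Grik4, which encodes a high-affinity auxiliary subunit (chromosome 9, 42518135 to 42944493, minus strand), was at 17.0, 17.2, 17.6 and 18.2 CPM in the controls and at 24.6, 22.8, 23.5 and 15.8 CPM in the dcKO. dcKO replicates 1, 2 and 3 were all above the controls and replicate 4 was below them, which gave a log2 fold change of 0.31 (SE 0.13, 95% interval 0.03 to 0.59, edgeR adjusted p = 0.318). Without dcKO replicate 4 the value was 0.44 (edgeR adjusted p = 0.0141).

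Grik1, a pore-forming subunit found in many interneurons, was at 25.4 ± 2.94 CPM against 21.2 ± 2.83 CPM, with a log2 fold change of -0.26 and an interval that ended at 0.00. Grik2 and Grik3, also pore-forming, had values of 0.09 and -0.14, and Grik5 one of 0.02. Grik5 made up 50.4 ± 1.07% of the family's per-length level in the controls and 51.5 ± 1.25% in the dcKO, and Grik4 4.86 ± 0.314% and 6.02 ± 0.731%. The delta receptor gene Grid1, which encodes a synapse-organising protein, was at 44.1 ± 6.30 and 46.1 ± 13.0 CPM, with dcKO replicate 1 highest at 62.7 CPM and replicate 4 lowest at 30.9 CPM.

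Metabotropic glutamate receptors lay lower in the dcKO for 5 of 6 genes, with a median log2 fold change of -0.236. None passed the adjusted threshold with all 8 libraries and no covariate. Their summed per-length level was 38.8, 38.0, 35.8 and 26.9 CPM per kb in dcKO replicates 1 to 4, against 35.8 to 43.8 in the controls. dcKO replicate 4 was thus below the control range, and dcKO replicate 3 was level with its lower end, which was control replicate 2. The other 3 controls, at 41.2 to 43.8, lay above every dcKO library. The lowest fold change of all members was that of Grm7 (chromosome 6, 110645581 to 111567230, plus strand), a presynaptic receptor that restrains transmitter release. It was at 45.0, 29.1, 44.0 and 47.1 CPM in the controls and at 37.4, 26.9, 28.4 and 18.4 CPM in the dcKO. Control replicate 2 lay among the dcKO values, the other 3 controls lay above all of them, and the log2 fold change was -0.57 (SE 0.20, 95% interval -1.01 to -0.13, edgeR adjusted p = 0.251). With 1 surrogate variable in the fit, Grm7 was lower by 0.78 on the log2 scale (edgeR adjusted p = 0.000355), and Grm7 and Grm5 were then the 2 members called, against 4.11% of all genes.

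Grm5, the group I receptor that couples to internal calcium through Homer, was at 182, 144, 152 and 180 CPM in the controls and at 141, 157, 152 and 109 CPM in the dcKO. The values overlapped, with a log2 fold change of -0.23 and an interval of -0.50 to 0.03. The fold change of Grm5 was -0.32 with 1 surrogate variable in the fit (edgeR adjusted p = 0.0452). Grm3, a group II receptor present in astrocytes as well as neurons, had a value of -0.15, and its group II relative Grm2 one of 0.01. Grm8, a presynaptic group III receptor, was at 8.24 ± 2.19 CPM against 6.87 ± 1.68 CPM. Grm4, of the same group, reached 13.6 CPM in dcKO replicate 2, whereas dcKO replicates 1, 3 and 4 held 4.27 to 5.61 CPM and the controls 7.05 to 10.6 CPM. dcKO replicate 2 was also the library with the most signal from striatal neuron markers, at 261 CPM summed over 7 genes against 88.2 to 135 CPM elsewhere. The part of these markers in the Grm4 level was not tested.

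**Figure D4:**
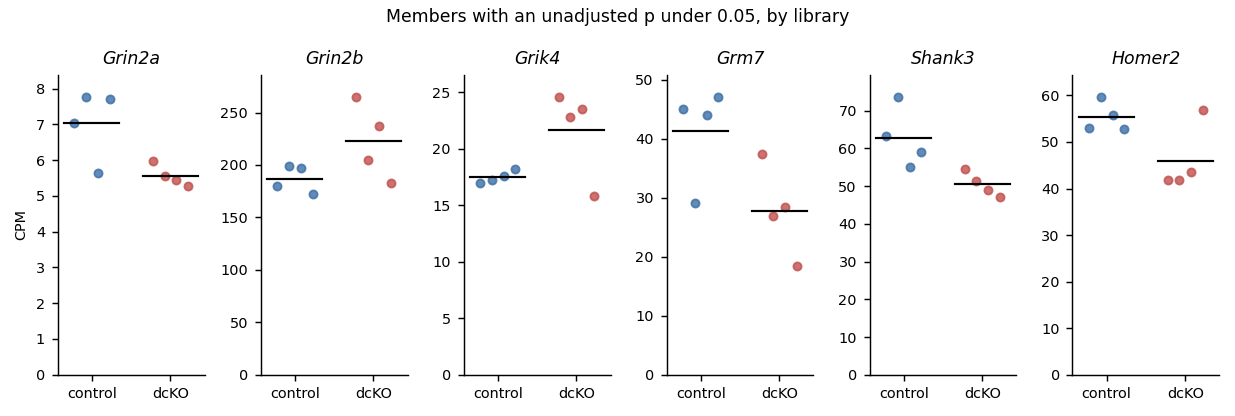
CPM in each library for the 6 genes with an unadjusted p under 0.05, controls in blue and dcKO in red from replicate 1 on the left to 4 on the right, with a black line at each group mean and axes from 0. The groups are apart for Shank3 only, and dcKO replicate 4 sits within or beyond the control range for Grin2b, Grik4 and Homer2.

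Shank proteins, which form the deepest layer of the postsynaptic scaffold, held the member with the smallest p. Shank3 (chromosome 15, 89499623 to 89560261, plus strand) was at 63.3, 73.7, 55.2 and 59.0 CPM in the controls and at 54.5, 51.5, 49.0 and 47.1 CPM in the dcKO. All dcKO libraries were below all controls and the log2 fold change was -0.31 (SE 0.10, 95% interval -0.52 to -0.10, edgeR adjusted p = 0.188). Over 17 alternatives its log2 fold change ranged from -0.37 to -0.19 and its adjusted p (edgeR, DESeq2 or limma) from 0.091 to 0.429.

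Shank1 was at 191, 272, 181 and 191 CPM in the controls and at 193, 154, 157 and 191 CPM in the dcKO. Its log2 fold change of -0.26 (95% interval -0.56 to 0.03) included control replicate 2, which stood well above the rest, and was -0.10 without it. Shank2 was at 111 ± 8.68 CPM and 115 ± 14.5 CPM, with a log2 fold change of 0.06 (95% interval -0.15 to 0.27). It took 25.3% to 29.5% of the family's per-length level in the controls and 30.4% to 34.4% in the dcKO. The rest of that sum was Shank1 and Shank3, with fold changes of -0.26 and -0.31, so the shares are not a measure of Shank2 alone. These shares did not overlap, and as they were singled out after their values were seen they are given without a test.

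Homer proteins link Shank to metabotropic receptors, and Homer2 had the lowest fold change of the 3. Homer2 (chromosome 7, 81600481 to 81707527, minus strand) was at 53.1, 59.7, 55.7 and 52.7 CPM in the controls and at 41.8, 41.8, 43.5 and 56.9 CPM in the dcKO. dcKO replicates 1 to 3 lay below every control, while replicate 4 lay among the controls, and the log2 fold change was -0.27 (SE 0.11, 95% interval -0.50 to -0.03, edgeR adjusted p = 0.3). Without dcKO replicate 4 it was -0.38 (edgeR adjusted p = 0.0171). Homer1 (-0.06, interval -0.24 to 0.13) and Homer3 (-0.03, interval -0.23 to 0.17) had values near 0, and Homer3 shares 25.4% of its exon bases with Ddx49 on the opposite strand, where reads cannot be told apart either.

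The MAGUK scaffolds, which bind the tails of NMDA receptors and AMPA receptor auxiliary subunits, lay slightly above 0 for 3 of 4 genes. Dlg4 was at 360, 368, 373 and 372 CPM in the controls, a narrow range, and at 468, 398, 413 and 330 CPM in the dcKO. dcKO replicates 1, 2 and 3 were above the controls and replicate 4 below, and the log2 fold change was 0.13 with an interval of -0.09 to 0.35. Dlg2, which encodes PSD-93, was at 283 ± 17.0 CPM against 331 ± 50.5 CPM (0.22, interval -0.01 to 0.46).

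Dlg3 and Dlg1, which encode SAP102 and SAP97, showed values of -0.02 and 0.06. SAP102 is abundant at immature synapses and PSD-95 at mature ones, and the log2 ratio of Dlg3 to Dlg4 CPM was -1.76 ± 0.07 in the controls and -1.91 ± 0.12 in the dcKO. The ratio was below every control in 3 of 4 dcKO libraries, but the difference of -0.15 did not pass (two-sided exact permutation test, n = 4, p = 0.114, adjusted over 4 ratios 0.228). The limit on the adjusted test given for Grin2b to Grin2a holds here too. The SAPAP genes Dlgap1 and Dlgap2, whose products bridge PSD-95 and Shank, had log2 fold changes of 0.10 (interval -0.10 to 0.30) and 0.01 (interval -0.28 to 0.30).

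CaMKII, the kinase that phosphorylates receptors and scaffolds after calcium entry, was dominated by Camk2b, which took 71.1 ± 0.698% of the family's per-length level in the controls and 72.4 ± 5.55% in the dcKO. Camk2b was at 479 ± 14.9 CPM and 434 ± 65.1 CPM, with a log2 fold change of -0.14 (interval -0.37 to 0.08). Camk2a, a marker of maturing excitatory neurons, was at 155, 154, 173 and 156 CPM in the controls and at 165, 161, 149 and 78.1 CPM in the dcKO. Its fold change of -0.20 (interval -0.62 to 0.21) included that low value of replicate 4, as the other dcKO libraries lay at or near the control range, and was -0.01 without it. The log2 ratio of Camk2b to Camk2a was 1.59 ± 0.05 against 1.70 ± 0.42 (two-sided exact permutation test, n = 4, p = 0.714, adjusted over 4 ratios 0.714), and without dcKO replicate 4 the difference went from 0.11 to -0.08.

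A further 70 genes of the glutamatergic synapse were examined alongside the members: auxiliary receptor subunits, other receptors, postsynaptic density proteins, adhesion molecules and transporters. Of the 69 tested, 3 fell and 2 rose at an adjusted p of 0.05 by edgeR, and the median log2 fold change was 0.034. These 5 are 7.25% of the 69, beside 0.884% of all genes tested. The list was chosen with earlier results of these data known, so the difference between the 2 shares is not read further. The genes that fell were Cnih3, an AMPA receptor auxiliary subunit that slows receptor closing, Frmpd4, a PSD-95 binding protein of dendritic spines, and Baiap2, which encodes the actin regulator IRSp53. Those that rose were Camk2n1, an inhibitor of CaMKII, and Lrrtm2, a postsynaptic adhesion molecule.

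Cnih3 was at 73.3, 49.7, 71.3 and 75.9 CPM in the controls and at 44.1, 37.7, 38.6 and 36.1 CPM in the dcKO, a fold change of -0.79 (SE 0.13, 95% interval -1.07 to -0.51, edgeR adjusted p = 0.0202). Every dcKO library lay below every control, the nearest control being replicate 2. Frmpd4 was at 22.7, 22.4, 23.2 and 23.7 CPM against 16.8, 16.0, 13.6 and 16.0 CPM (-0.56, edgeR adjusted p = 0.0196). Baiap2 was at 59.6 ± 2.07 CPM against 41.9 ± 5.33 CPM (-0.51, edgeR adjusted p = 0.0339). Both were likewise lower in each dcKO library than in any control.

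Camk2n1 was at 163, 175, 156 and 161 CPM in the controls and at 217, 201, 248 and 244 CPM in the dcKO (0.47, edgeR adjusted p = 0.0335). Lrrtm2 was at 64.2, 62.9, 57.4 and 61.4 CPM against 83.8, 79.9, 83.3 and 97.7 CPM (0.49, edgeR adjusted p = 0.0221). Neither gene overlapped between groups, and dcKO replicate 4 did not stand apart from the other dcKO libraries in the direction of the controls for any of the 5. The next gene by p among those higher in the dcKO was Lrrc4c, which encodes the adhesion molecule NGL-1, with a value of 0.42 that did not pass (edgeR adjusted p = 0.187). Leaving out 1 library at a time, the 5 calls were not stable, and each of the 5 passed the adjusted threshold in 2 to 4 of 8 such comparisons. Each kept its direction in all 17 alternatives, which reuse the libraries that gave the calls and so are not independent of them.

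**Figure D5:**
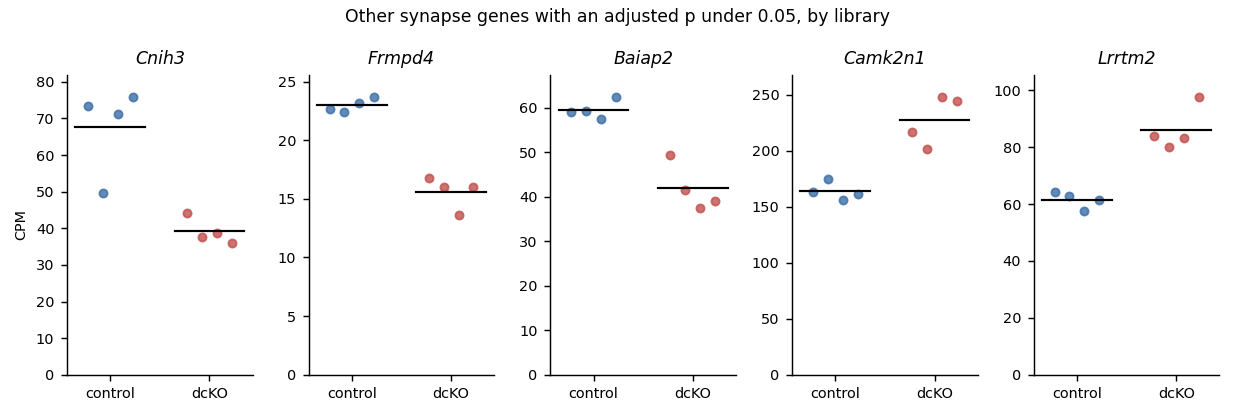
CPM in each library for the 5 other synapse genes with an adjusted p under 0.05, controls in blue and dcKO in red from replicate 1 on the left to 4 on the right, with a black line at each group mean and axes from 0. Cnih3, Frmpd4 and Baiap2 are lower and Camk2n1 and Lrrtm2 higher in all 4 dcKO libraries.

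By type, 1 of 15 auxiliary subunits fell and 0 rose, 2 of 27 postsynaptic density proteins fell and 1 rose, and 1 of 19 adhesion molecules rose. None of the 6 glutamate transporters passed, and the vesicular transporter Slc17a7, which fills vesicles of cortical excitatory neurons, was at 82.3 ± 20.1 CPM against 56.5 ± 15.0 CPM (-0.54, edgeR adjusted p = 0.28). Without the 2 libraries of highest mitochondrial share, 12 of the 69 passed. Of these, 4 fell, or 5.80%, and 8 rose, or 11.6%, beside the 5.50% and 5.49% of all genes given above. The limit on the choice of this list holds for these shares too.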

How the data were processed

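RNA was isolated with TRIZOL from whole P1 cortex, and libraries were prepared with the Illumina TruSeq RNA Sample Preparation v2 Kit, which does not mark strand. The authors deposited 1 table of raw counts per gene for each of 4 control and 4 dcKO libraries. The build in the submitters' processing notes is mm10, and the aligner, counter and strand setting are not given in the sources used here. Groups and replicate numbers came from the sample titles, and lane tags from the names of the deposited tables.

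Counts were normalised by TMM and tested with edgeR 4.0.16 (glmQLFit, glmQLFTest, R 4.3.3) after its filterByExpr filter, with 16287 genes kept and p-values adjusted over all of them by the method of Benjamini and Hochberg. CPM used TMM library sizes, and per-length levels were divided by the length of the merged exons of all transcripts in GENCODE M21. That annotation (GRCm38, the same assembly as mm10) also gave gene positions. Intervals are 95% intervals from the quasi-likelihood fit. Within-library ratios were compared by exact permutation. No library was a duplicate of another. Libraries ranged from 17958641 to 35191912 counts.

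Alternatives were DESeq2 1.42.0 size factors and its Wald test, limma-voom (limma 3.58.1), no filter, at least 10 counts in every library, a replicate block, 1 lane tag, 1 surrogate variable (sva 3.50.0), leaving out each library, and, added after seeing the data, leaving out the library of highest mitochondrial share in each group. The tests were run on simulated data with known changes first. Same-numbered libraries deviated from their group means with correlations of 0.126, 0.018, 0.135 and -0.138, so the numbers were not used as pairs.

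The members and lists were chosen with earlier results of these data known. All members are named, with full statistics for those at an unadjusted p under 0.05. Of the other synapse genes, those named are the ones that passed the adjusted threshold and the 3 with the smallest p in each direction, and Slc17a7 was named after its value was seen. Cell type markers are given by counts and summed levels. They are named, chosen after their values were seen, where they passed or, for projection neurons, did not overlap between groups.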

Additional observations from a re-analysis of the deposited data

Results flagged for a closer look

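For the 36 tested members, the highest or lowest of 4 libraries lay farther from the others than Dixon's 95% limit allows in 9 of 72 groups, where chance gives about 1 in 20, or 3.6, and in 0 of 20 groups for the other named synapse genes and the 4 ratios. Of these, 4 were in control replicate 2. Gria4 was at 104 CPM there against 93.9 to 94.3 CPM in the other controls, Grik2 at 117 against 97.7 to 101 CPM, Shank1 at 272 against 181 to 191 CPM, and Grid1 at 34.8 against 46.3 to 48.5 CPM. In dcKO replicate 1, Shank2 was at 137 CPM against 107 to 109 CPM and Homer1 at 96.1 CPM against 81.7 to 83.5 CPM in the other dcKO libraries. Grm4 stood at 13.6 CPM in dcKO replicate 2 against 4.27 to 5.61 CPM, and Homer2 at 56.9 CPM in dcKO replicate 4 against 41.8 to 43.5 CPM. Camk2a was at 173 CPM in control replicate 3 against 154 to 156 CPM.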

How the results depend on the processing

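The count of members past the adjusted threshold was 0 with all 8 libraries and no covariate. With 1 surrogate variable, also fitted on all 8, it was 2. Leaving out 1 library at a time gave 0 to 2, and the added comparison of 3 against 3 libraries gave 4. At an unadjusted p under 0.05 the count was 6, of which 4 were lower and 2 higher in the dcKO. Under the surrogate variable it was 13, of which 12 were lower and 1 higher, so there the members did not go both ways evenly. The share of all genes at that threshold is not given for that fit. Leaving out 1 library gave 3 to 7. The median log2 fold change of the members was -0.021, with a range of -0.104 to 0.000 when leaving out 1 library, and dcKO replicate 1 decided the lower end. Of the other synapse genes, 5 passed with all libraries and no covariate, 7 with 1 surrogate variable and 1 under the replicate block. Within lane tag 2 the count was 2, leaving out 1 library it was 0 to 10, and in the 3 against 3 comparison it was 12. The replicate block gave 0 members past the adjusted threshold and 54 genes in all, against 144 without it, and since the numbers do not pair the libraries a call lost there is not read further. Leaving out dcKO replicate 4 gave 1278 genes in all, against 18 to 87 for each other library. Over leaving out 1 library, the difference in log2 ratio between dcKO and control ranged from 0.48 to 0.70 for Grin2b to Grin2a, from -0.08 to 0.25 for Camk2b to Camk2a and from -0.25 to 0.05 for Gria2 to Gria1. The causes were not tested. Over 17 alternatives, 53 of 612 member values changed sign, in 18 members of which none had passed the threshold. The 6 members with an unadjusted p under 0.05 kept their direction throughout. They were picked by that p, and the alternatives reuse the same libraries, so a kept direction is not independent support. With 4 libraries a group, 12 of 36 members had intervals reaching past 0.5 on the log2 scale, and depth limits Grin3b and Grin2c.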
